A study of Mus musculus with 12 samples.

Results

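Transcripts of 8 genes of neurotrophic signalling were followed in the organ of Corti, which holds the sensory hair cells of the cochlea, of mice lacking clarin-1, clarin-2 or both. The genes were chosen by symbol and are the ligand genes Bdnf, Ntf3 and Gdnf and the receptor genes Ntrk2, Ntrk3, Ngfr, Gfra1 and Ret. They are 8 of the 55348 genes in the count files, and all 8 passed the filter on low counts that left 19052 genes. The neurotrophins BDNF and NT-3, encoded by Bdnf and Ntf3, are secreted proteins that keep the primary auditory neurons of the spiral ganglion alive and guide their fibres to the hair cells. They act through the receptor tyrosine kinases TrkB (Ntrk2) and TrkC (Ntrk3), while p75 (Ngfr) binds all neurotrophins with lower affinity. GDNF, a distant relative of the TGF-beta family, binds the membrane-anchored co-receptor GFRalpha1 (Gfra1), and this pair activates the receptor tyrosine kinase RET.

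RNA was sequenced at P21 (postnatal day 21) from 4 genotypes with 3 libraries each. The wild-type mice carried both clarin genes. The Clrn1-/- mice lacked exon 4 of Clrn1 in all cells, after a floxed allele had been recombined with PGK-cre. The Clrn2-/- mice carried the clarinet allele, a nonsense mutation near the start of Clrn2, and the Clrn1-/-Clrn2-/- mice (double mutants) came from crosses of both lines. Stria vascularis and modiolus, the core of the cochlea that holds the spiral ganglion, had been dissected away. Wild-type mice came from breedings of their own, so breeding and genotype cannot be told apart. The number of animals behind a library is not stated, and p-values measure the spread between these libraries, which may be partly technical.

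Each library held 30008679 to 41049302 counts on genes. Libraries of one genotype differed by 4.13 to 17.4 times the variance expected from counting alone, so none was counted as a repeat of another, and the common coefficient of variation was 6.15%. The Clrn1 allele showed in the counts, where Clrn1 had a mean of 25.8 ± 2.46 CPM (counts scaled to 1e6 counts of normalized library size, with SD, n = 3) in wild-type and 28.8 ± 2.83 in Clrn2-/- mice against 2.83 ± 0.184 in Clrn1-/- and 2.31 ± 0.482 in double mutants. For Clrn2 the means were 2.72 ± 0.727 CPM in wild-type, 1.08 ± 0.138 in double mutants, 1.23 ± 0.172 in Clrn2-/- mice, and 0.916 ± 0.107 in Clrn1-/- mice, whose Clrn2 gene is intact. The Clrn2 allele thus cannot be read from the counts of Clrn2. In such bulk tissue, fewer cells of a type and less RNA per cell cannot be told apart.

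The 300-base promoter windows of Bdnf, Gdnf and Gfra1 are shown because, among the 8 genes, only these 3 were called in any comparison. For Bdnf and Gdnf, which have several windows, only the window that holds the motif core described below is printed. The printed Gdnf window lies upstream of the gene's start in Gencode, at chr15:7810846. Each runs from 250 bases before to 50 bases after a start site in RefSeq on GRCm38.p6, and is written 5′ to 3′ on the gene's own strand. RefSeq gave 7 such windows for Bdnf, 2 for Gdnf, 2 for Ntf3 and 1 each for Ngfr, Ntrk2 and Gfra1. The windows were searched on both strands for the cAMP response element TGACGTCA, the DNA motif that CREB binds, and for its core TGACG, which the full element holds on both of its strands. The core was found in 1 of the 7 Bdnf windows, in 1 of the 2 Gdnf windows and in none of the other windows of these genes, and the full element in none. Among all 32851 promoter windows of that table, 20.8% held the core and 1.79% the full element. Capitals mark the core, which lies on the opposite strand and so reads CGTCA in both windows. The counts are per gene and do not show which start site was used.
Bdnf, plus strand, chr2:109692186-109692485: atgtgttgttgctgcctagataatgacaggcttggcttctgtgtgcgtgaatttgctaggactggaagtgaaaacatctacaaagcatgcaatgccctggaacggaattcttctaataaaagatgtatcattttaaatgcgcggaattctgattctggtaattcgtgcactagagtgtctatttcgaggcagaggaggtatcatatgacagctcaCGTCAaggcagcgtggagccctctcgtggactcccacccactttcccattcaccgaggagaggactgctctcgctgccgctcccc
Gdnf, plus strand, chr15:7809798-7810097: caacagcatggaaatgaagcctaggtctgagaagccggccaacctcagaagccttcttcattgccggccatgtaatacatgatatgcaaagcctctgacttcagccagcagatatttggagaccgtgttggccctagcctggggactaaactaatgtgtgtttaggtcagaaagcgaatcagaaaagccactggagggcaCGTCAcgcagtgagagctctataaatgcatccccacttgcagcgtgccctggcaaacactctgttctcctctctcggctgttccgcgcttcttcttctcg
Gfra1, minus strand, chr19:58455349-58455648, without the core: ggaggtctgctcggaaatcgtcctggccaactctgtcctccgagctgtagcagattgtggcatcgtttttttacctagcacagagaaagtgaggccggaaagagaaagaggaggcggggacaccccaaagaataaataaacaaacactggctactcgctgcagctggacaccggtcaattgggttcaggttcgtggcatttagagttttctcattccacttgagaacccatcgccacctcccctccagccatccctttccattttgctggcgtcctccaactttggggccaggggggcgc

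A gene was called changed when edgeR's quasi-likelihood test, fitted to all 19052 genes and 12 libraries, gave a p, adjusted by Benjamini-Hochberg, no higher than 0.05 and the fold change reached 1.5. Against wild-type, the calls in Clrn1-/- mice took in 2 of the 8 genes, where Gdnf rose and Gfra1 fell, beside 7.22% of all genes tested. In Clrn2-/- mice 1 of the 8 was called, the increase of Gdnf, beside 2.66% of all genes. In double mutants 2 of the 8 were called, Bdnf and Gdnf, both higher, beside 9.9% of all genes. With counts of 1 or 2 among 8, these shares are close enough to the background that nothing is read from the counts themselves. The median log2 fold change of the 8 genes was 0.15, 0.02 and 0.00 in the 3 mutants in that order, and that of all genes was 0.00 in each. These comparisons share the wild-type libraries.

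**Figure D1:**
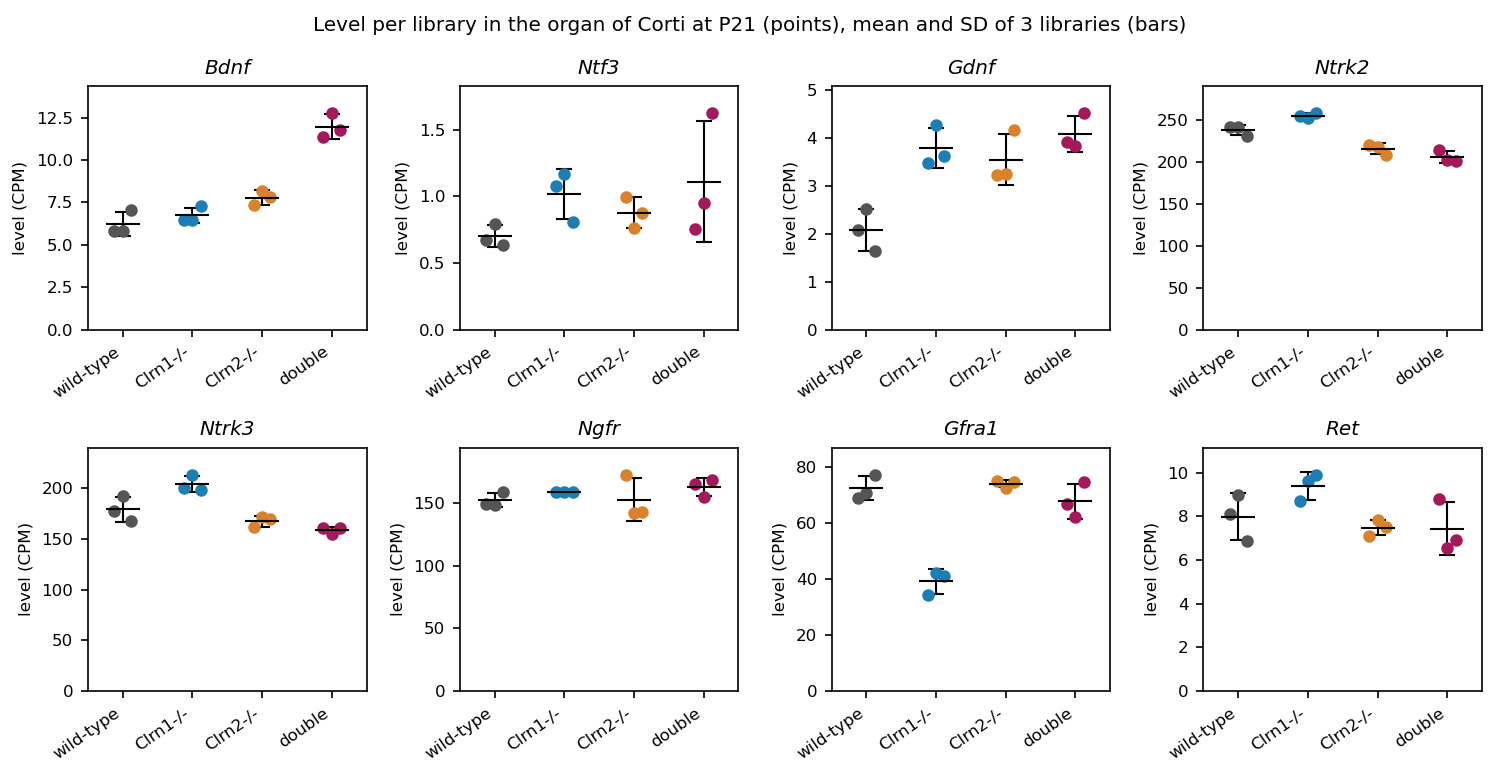
Level of each of the 8 genes in CPM (vertical axes, from 0) in the 12 libraries, by genotype; points are libraries, horizontal bars the means and error bars the SD of 3 libraries. The Bdnf level of all double-mutant libraries, 11.4 to 12.8 CPM, lies above every other library, and the Gfra1 level of the Clrn1-/- libraries, 34.2 to 42.4 CPM, lies below every other library.

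Per exon length, 4 of the 5 receptor genes were more abundant than the ligand genes, and Ret was near Bdnf. In wild-type mice, the mean FPKM (CPM per kilobase of exon) was 44.2 for Ngfr, 13.2 for Gfra1, 12.3 for Ntrk2, 5.95 for Ntrk3 and 1.18 for Ret. The ligands Bdnf, Gdnf and Ntf3 followed at 1.00, 0.567 and 0.409 FPKM. The lengths were those of all annotated exons of a gene together, which makes genes with long alternative ends, such as Ntrk3, appear lower. The order of Gfra1 before Ntrk2 did not hold in Clrn1-/- mice, where Gfra1 was at 7.17 and Ntrk2 at 13.2 FPKM. Ret and Bdnf also changed places, with Ret at 1.11 and Bdnf at 1.25 FPKM in Clrn2-/- mice and at 1.10 and 1.93 in double mutants.

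Bdnf, which encodes the ligand of TrkB, rose in double mutants. The gene (ENSMUSG00000048482.14) lies on the plus strand at chr2:109674700-109727007 of GRCm38. Its level was 5.82, 5.83 and 7.06 CPM in the wild-type libraries, 6.45, 6.49 and 7.27 in Clrn1-/-, 7.37, 8.20 and 7.81 in Clrn2-/-, and 11.4, 12.8 and 11.8 in double mutants. The double-mutant libraries stood apart from all others, while the wild-type and Clrn1-/- libraries overlapped and the Clrn2-/- libraries lay just above both. Relative to wild-type, the log2 fold change in double mutants was 0.94 (standard error 0.10, 95% interval 0.74 to 1.14, edgeR adjusted p = 1.32e-06), or 1.92-fold. In Clrn2-/- mice it was 0.32 (interval 0.11 to 0.53, adjusted p = 0.0398), below the 1.5-fold minimum, and in Clrn1-/- mice 0.11 (interval -0.10 to 0.32, adjusted p = 0.444). Each library held 204 to 457 counts on Bdnf.

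The double mutants also exceeded both single mutants in Bdnf. Among the 8 genes, 2 were called between double mutants and Clrn1-/- mice, Bdnf and Gfra1, both higher in double mutants, beside 7.23% of all genes. There, the log2 fold change of Bdnf was 0.83 (interval 0.63 to 1.03, edgeR adjusted p = 7.9e-06). Between double mutants and Clrn2-/- mice, Bdnf was the 1 gene of the 8 called, beside 5.1% of all genes, with a log2 fold change of 0.62 (interval 0.42 to 0.82, edgeR adjusted p = 1.76e-04). That call lay close to the 1.5-fold minimum and was lost without Clrn2-/- replicate 1, at a log2 fold change of 0.58 (adjusted p = 0.00156), and without double-mutant replicate 2, at 0.56 (adjusted p = 0.00198). Between the single mutants the log2 fold change of Bdnf was -0.21 in Clrn1-/- relative to Clrn2-/- mice (interval -0.41 to -0.00, adjusted p = 0.154). The order from low to high was wild-type, Clrn1-/-, Clrn2-/- and double mutants, in which only the step to the double mutants was called.

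Gdnf, which encodes the ligand of GFRalpha1 and RET, rose in all 3 mutants. The gene (ENSMUSG00000022144.4) lies on the plus strand at chr15:7810846-7837575. Its level was 2.08, 2.52 and 1.65 CPM in the wild-type libraries, 3.48, 4.27 and 3.61 in Clrn1-/-, 3.23, 3.24 and 4.16 in Clrn2-/-, and 3.90, 3.83 and 4.51 in double mutants. Every mutant library was above every wild-type library, and the 3 mutants overlapped with one another. The log2 fold change relative to wild-type was 0.87 (interval 0.52 to 1.22, edgeR adjusted p = 0.00108) in Clrn1-/-, 0.77 (interval 0.42 to 1.12, adjusted p = 0.00543) in Clrn2-/- and 0.98 (interval 0.63 to 1.33, adjusted p = 2.03e-04) in double mutants.

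The increase of Gdnf in double mutants was less than the sum of the increases in both single mutants, by 0.66 on the log2 scale (interval of the interaction -1.14 to -0.18), which was not called (edgeR adjusted p = 0.0563). It passed without wild-type replicate 2, at -0.84 (adjusted p = 0.0215). Among the mutants, the log2 fold change of Gdnf was 0.10 in Clrn1-/- relative to Clrn2-/- (interval -0.23 to 0.43), 0.11 in double mutants relative to Clrn1-/- (interval -0.22 to 0.44) and 0.21 relative to Clrn2-/- (interval -0.12 to 0.54), with adjusted p-values of 0.719, 0.646 and 0.363. Gdnf had 65 to 175 counts per library.

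Ntf3, which encodes NT-3, the ligand of TrkC, was the least abundant of the 8 genes, and its changes were not called. The gene (ENSMUSG00000049107.13) lies on the minus strand at chr6:126101412-126166910. Its level was 0.674, 0.794 and 0.633 CPM in the wild-type libraries, 1.08, 1.16 and 0.805 in Clrn1-/-, 0.995, 0.765 and 0.871 in Clrn2-/-, and 0.754, 0.951 and 1.62 in double mutants. The Clrn1-/- libraries lay above the wild-type ones, whereas those of the other mutants overlapped with them, and double-mutant replicate 3 was the highest of all. The log2 fold change relative to wild-type was 0.53 (interval -0.06 to 1.13, edgeR adjusted p = 0.179) in Clrn1-/-, 0.33 (interval -0.28 to 0.94, adjusted p = 0.501) in Clrn2-/- and 0.69 (interval 0.10 to 1.28, adjusted p = 0.0638) in double mutants. Without double-mutant replicate 3 the last value was 0.28 (adjusted p = 0.47), and without double-mutant replicate 1 it was 0.89 and passed (adjusted p = 0.0223). It also passed with library size alone, at 0.73 (adjusted p = 0.0496), and without a filter on low counts, at 0.68 (adjusted p = 0.049). Ntf3 had 23 to 63 counts per library, the fewest of the 8 genes.

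Gfra1, which encodes the GDNF-binding co-receptor GFRalpha1, fell in Clrn1-/- mice and was not called against wild-type in the other mutants. The gene (ENSMUSG00000025089.15) lies on the minus strand at chr19:58235604-58455909. Its level was 69.2, 70.9 and 77.5 CPM in the wild-type libraries, 34.2, 42.4 and 41.1 in Clrn1-/-, 75.3, 72.7 and 74.8 in Clrn2-/-, and 66.9, 62.3 and 74.7 in double mutants. The Clrn1-/- libraries stood below all others, and the remaining 3 genotypes overlapped. In Clrn1-/- mice the log2 fold change relative to wild-type was -0.88 (standard error 0.08, interval -1.05 to -0.72, edgeR adjusted p = 6.91e-07), a level 0.54 times that of wild-type. It was 0.03 (interval -0.12 to 0.19, adjusted p = 0.822) in Clrn2-/- mice and -0.09 (interval -0.25 to 0.06, adjusted p = 0.358) in double mutants.

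Between the mutants, the difference in Gfra1 was called as well. Gfra1 was the 1 gene of the 8 called between the single mutants, beside 4.73% of all genes, with a log2 fold change of -0.92 in Clrn1-/- relative to Clrn2-/- mice (interval -1.08 to -0.76, edgeR adjusted p = 6.49e-07). It was higher in double mutants than in Clrn1-/- mice by 0.79 (interval 0.63 to 0.95, adjusted p = 1.58e-06). Gfra1 was also the 1 gene of the 8 called for the interaction of both genotypes, beside 5.5% of all genes. The interaction was 0.76 on the log2 scale (interval 0.53 to 0.98, adjusted p = 1.81e-04), so the difference that loss of Clrn1 made was -0.88 in mice with Clrn2 and -0.13 in mice without it (interval of the latter -0.28 to 0.03, adjusted p = 0.232). The antisense gene Gm16277 shares 416 exon bases with Gfra1 but had 0 to 2 counts per library in the orientation used, and with unstranded counts the calls for Gfra1 were unchanged.

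Ret, which encodes the signalling receptor of GDNF, was not called in any comparison. The gene (ENSMUSG00000030110.13) lies on the minus strand at chr6:118151745-118197718. Its level was 8.12, 8.99 and 6.86 CPM in the wild-type libraries, 8.70, 9.62 and 9.92 in Clrn1-/-, 7.13, 7.84 and 7.50 in Clrn2-/-, and 8.82, 6.54 and 6.93 in double mutants. Wild-type libraries overlapped with those of each mutant, and the Clrn1-/- libraries lay above the Clrn2-/- ones. Relative to wild-type the log2 fold change was 0.24 (interval -0.01 to 0.49, edgeR adjusted p = 0.142) in Clrn1-/-, -0.09 (interval -0.34 to 0.16, adjusted p = 0.673) in Clrn2-/- and -0.11 (interval -0.36 to 0.15, adjusted p = 0.528) in double mutants. In double mutants relative to Clrn1-/- mice it was -0.35 (interval -0.60 to -0.10, adjusted p = 0.0352), below the 1.5-fold minimum. In Clrn1-/- mice, Gfra1 was thus at 0.54 times and Ret at 1.18 times its wild-type level.

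Ntrk2 and Ntrk3, the genes of TrkB and TrkC, differed between genotypes by small amounts with little spread between libraries. Ntrk2 (ENSMUSG00000055254.15) lies on the plus strand at chr13:58806569-59133970 and Ntrk3 (ENSMUSG00000059146.12) on the minus strand at chr7:78175959-78738012. The level of Ntrk2 was 241, 241 and 231 CPM in the wild-type libraries, 254, 252 and 258 in Clrn1-/-, 220.2, 218 and 208 in Clrn2-/-, and 214, 202 and 202 in double mutants. The level of Ntrk3 was 178, 193 and 168 CPM in wild-type, 201, 214 and 199 in Clrn1-/-, 162, 172 and 170 in Clrn2-/-, and 161, 155 and 161 in double mutants. For both genes the Clrn1-/- libraries were the highest and the double-mutant libraries were all below those of wild-type, with those of Clrn2-/- below wild-type for Ntrk2 and overlapping with it for Ntrk3.

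Neither Trk gene reached the 1.5-fold minimum in any comparison, although several differences passed an adjusted p of 0.05. Among the alternative settings, the adjusted p rose above 0.05 for Ntrk2 in Clrn2-/- and for Ntrk3 in Clrn1-/- and double mutants, each against wild-type. The log2 fold change of Ntrk2 relative to wild-type was 0.10 (interval 0.01 to 0.18, edgeR adjusted p = 0.0798) in Clrn1-/-, -0.14 (interval -0.23 to -0.06, adjusted p = 0.0267) in Clrn2-/- and -0.21 (interval -0.29 to -0.12, adjusted p = 6.76e-04) in double mutants. For Ntrk3 these were 0.19 (interval 0.08 to 0.29, adjusted p = 0.0113), -0.10 (interval -0.20 to 0.01, adjusted p = 0.211) and -0.18 (interval -0.28 to -0.07, adjusted p = 0.0113). The step from Clrn1-/- mice to double mutants was the widest for both, at -0.31 for Ntrk2 (interval -0.39 to -0.22, adjusted p = 2.9e-05) and -0.36 for Ntrk3 (interval -0.47 to -0.25, adjusted p = 4.69e-05). Between Clrn2-/- mice and double mutants the differences were -0.07 (adjusted p = 0.25) and -0.08 (adjusted p = 0.291), within the intervals -0.15 to 0.02 and -0.18 to 0.03. Both receptors occur in full-length and truncated forms without a kinase, which counts per gene do not separate.

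Ngfr, the gene of p75, was the most abundant of the 8 genes per length and showed no called difference. The gene (ENSMUSG00000000120.6) lies on the minus strand at chr11:95568818-95587735. Its level was 149.5, 149 and 158 CPM in the wild-type libraries, 159, 159 and 158 in Clrn1-/-, 173, 142 and 143 in Clrn2-/-, and 165, 155 and 169 in double mutants. Wild-type overlapped with every mutant, and Clrn2-/- replicate 1 lay above every library of the other genotypes. Relative to wild-type the log2 fold changes were 0.06 (interval -0.07 to 0.19), 0.00 (interval -0.13 to 0.14) and 0.10 (interval -0.04 to 0.23) in the order Clrn1-/-, Clrn2-/- and double mutants (edgeR adjusted p = 0.526, 0.978 and 0.245). Changes of 1.5-fold lay outside each of these intervals.

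**Figure D2:**
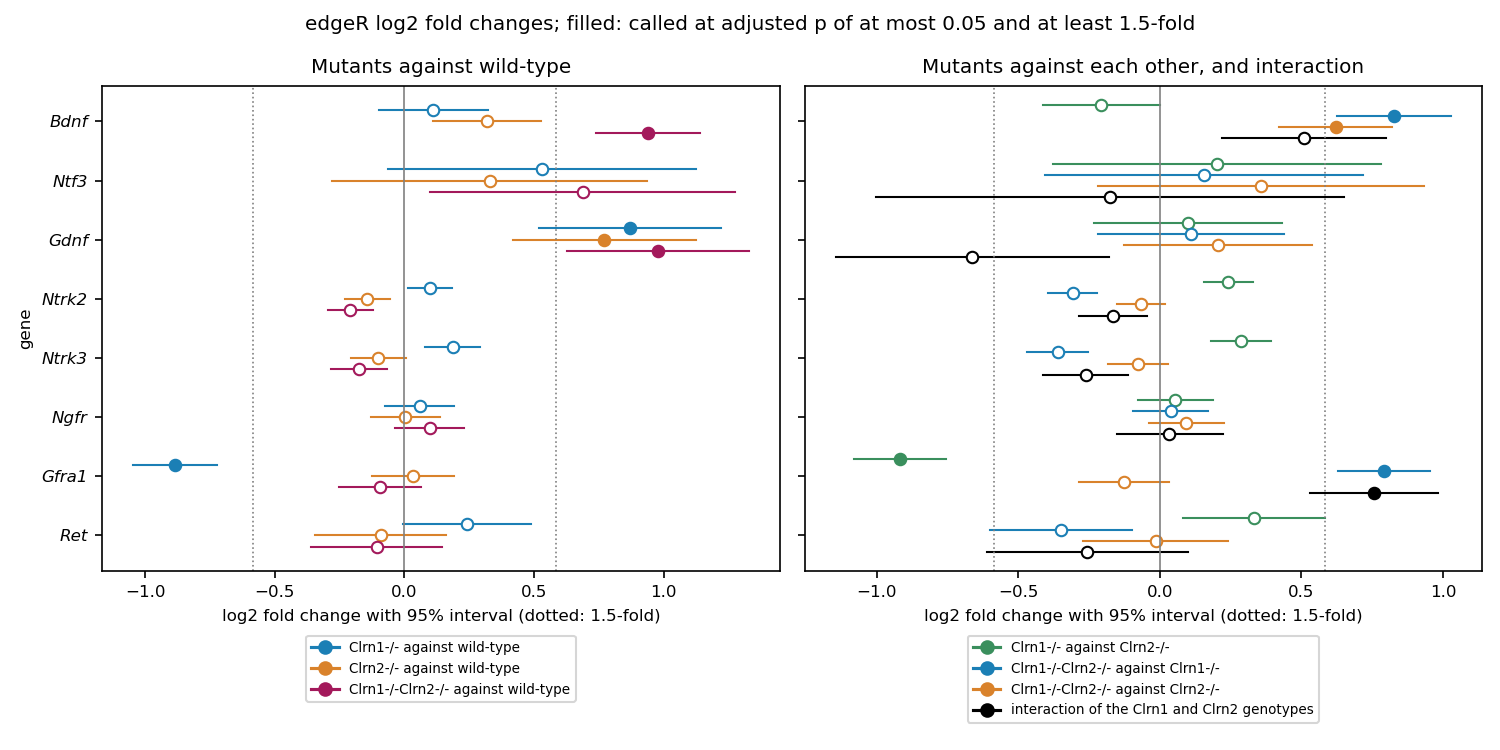
Log2 fold changes (horizontal axes) of the 8 genes with 95% intervals from edgeR, against wild-type on the left and between mutants and for the interaction on the right; filled points were called and dotted lines mark 1.5-fold. Gdnf is filled in all 3 mutants, Bdnf in double mutants (0.94) and Gfra1 in Clrn1-/- mice (-0.88), while all points of Ntrk2, Ntrk3, Ngfr and Ret are open.

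The genes around these receptors were taken from lists of pathway members, and most of them were not called. Of the 5 tested genes of other ligands, Gdf15, whose protein signals through RET with a co-receptor of its own, rose in Clrn2-/- mice from 0.983 ± 0.148 to 2.02 ± 0.608 CPM (log2 fold change 1.04, edgeR adjusted p = 0.0448), a call that limma-voom did not make. It rose in double mutants to 2.43 ± 1.17 CPM (1.32, edgeR adjusted p = 0.00393). Artn, a relative of Gdnf that binds GFRalpha3, rose in double mutants from 1.30 ± 0.123 to 2.03 ± 0.179 CPM (0.64, edgeR adjusted p = 0.00879). No ligand of this list was called in Clrn1-/- mice by edgeR, limma-voom or DESeq2, and 1 had an unadjusted p under 0.05.

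Of the 13 tested genes of other receptors and co-receptors, 2 (15.4%) rose in double mutants, beside 9.9% of all genes called there. Gfra2, the co-receptor for neurturin, rose from 4.72 ± 0.498 to 7.54 ± 0.741 CPM (log2 fold change 0.67, edgeR adjusted p = 1.83e-04). Gfra3 was called as well (edgeR adjusted p = 0.00371), at levels near the counting limit of 0.0817 ± 0.0953 CPM in wild-type and 0.413 ± 0.0688 in double mutants. None of the 13 was called in the single mutants by edgeR, limma-voom or DESeq2, where 6 in Clrn1-/- and 8 in Clrn2-/- mice had an unadjusted p under 0.05. There, edgeR called 7.22% and 2.66% of all genes. Among the 13 tested genes of ligand processing and secretion, Pcsk6, a proprotein convertase, fell in Clrn1-/- mice from 45.3 ± 1.50 to 29.3 ± 1.73 CPM (-0.63, edgeR adjusted p = 5.7e-06). Cadps2, which acts in dense-core vesicle release, rose in double mutants from 4.88 ± 0.548 to 7.78 ± 0.622 CPM (0.67, edgeR adjusted p = 1.04e-04).

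Adaptors and kinases below the receptors were not called against wild-type. None of the 40 receptor adaptors and none of the 30 genes of the MAPK and PI3K core was called against wild-type in any mutant by edgeR, limma-voom or DESeq2. Among all genes, edgeR called 7.22%, 2.66% and 9.9% in Clrn1-/-, Clrn2-/- and double mutants. At an unadjusted p under 0.05 there were 15, 12 and 24 adaptors and 11, 10 and 15 core genes in Clrn1-/-, Clrn2-/- and double mutants. The median log2 fold change of the adaptors was 0.04, -0.02 and 0.06, and that of the core genes 0.01, -0.01 and -0.03, beside 0.00 for all genes. Between the mutants, 1 adaptor (2.5%) was higher in double mutants than in Clrn1-/- and 1 (2.5%) lower than in Clrn2-/- mice, and 2 (5%) were called for the interaction. Among all genes these shares were 7.23%, 5.1% and 5.5%. No core gene was called between mutants or for the interaction by edgeR, limma-voom or DESeq2. At an unadjusted p under 0.05 there were 10 core genes between the single mutants, 20 between double mutants and Clrn1-/-, 15 between double mutants and Clrn2-/-, and 11 for the interaction.

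A further list held genes that are commonly induced by receptor tyrosine kinase signalling or that feed back on it. Of 25 tested, 2 rose and 1 fell in Clrn1-/-, 4 rose in Clrn2-/- and 10 rose in double mutants, with median log2 fold changes of 0.09, 0.11 and 0.49. All genes had a median of 0.00 and were called in 7.22%, 2.66% and 9.9%. The transcription factor gene Fos rose from 4.52 ± 0.778 CPM to 10.4 ± 2.63 in Clrn1-/-, 9.11 ± 1.14 in Clrn2-/- and 17.6 ± 1.99 in double mutants, with log2 fold changes of 1.20, 1.02 and 1.97 (edgeR adjusted p = 7.96e-05, 8.44e-04 and 1.75e-07). Atf3, a stress-induced relative of Fos, rose from 7.36 ± 1.06 CPM to 20.1 ± 2.30 in Clrn2-/- and 29.3 ± 1.04 in double mutants (1.45 and 1.99, edgeR adjusted p = 6.28e-07 and 1.22e-09). Fosb rose in every mutant, from 0.555 ± 0.300 CPM to 3.87 ± 2.03, 2.39 ± 2.05 and 4.98 ± 1.79 (edgeR adjusted p = 0.00225, 0.0304 and 3.46e-04). Dusp5, a phosphatase for ERK, fell in Clrn1-/- mice from 8.85 ± 0.197 to 5.16 ± 0.261 CPM (-0.78, edgeR adjusted p = 5.1e-04). Many of these genes also respond to neuronal activity, to stress and to handling of the tissue, and their part in the results for the 8 genes was not tested.

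Among 30 tested genes of other neurotrophic systems, 5 rose and 2 fell in double mutants (23.3%), beside 9.9% of all genes called there. The cytokine gene Lif rose from 0.317 ± 0.164 to 1.46 ± 0.242 CPM (log2 fold change 2.18, edgeR adjusted p = 3.01e-04) and Met, the receptor of HGF, from 17.8 ± 0.877 to 29.3 ± 1.24 (0.72, adjusted p = 1.56e-05). Nrg1, a ligand for ErbB receptors, fell from 90.2 ± 3.35 to 53.1 ± 3.08 CPM (-0.76, edgeR adjusted p = 9.09e-09) and Fgf1, a growth factor of sensory neurons, from 436 ± 10.9 to 290.5 ± 1.47 (-0.59, edgeR adjusted p = 4.15e-08). In Clrn1-/- mice 1 of the 30 rose (3.33%, beside 7.22% of all genes), the ErbB receptor gene Erbb4, from 7.14 ± 0.550 to 12.2 ± 0.599 CPM (0.78, edgeR adjusted p = 4.08e-05). In Clrn2-/- mice none was called by any of the 3 tools, beside 2.66% of all genes called by edgeR, and 16 had an unadjusted p under 0.05.

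**Figure D3:**
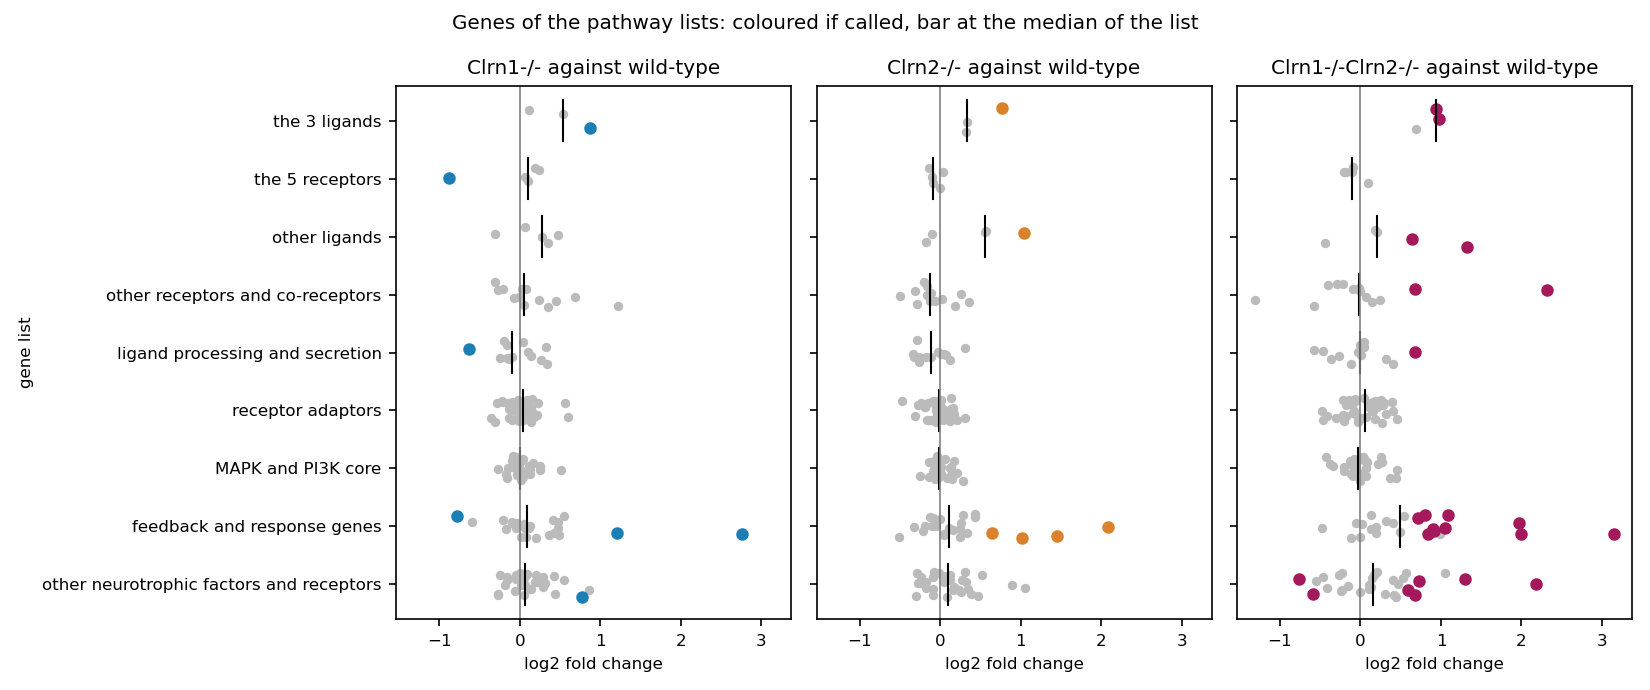
Log2 fold changes against wild-type (horizontal axes) of the tested genes of each list (vertical axis), 1 panel per mutant; coloured points were called, grey points were not, and the bar is the median of the list. The feedback and response genes are shifted to the right in double mutants, with a median of 0.49 and 10 of 25 called.

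Markers of cell types differed between genotypes and are given here for comparison. All 15 hair cell markers were present, but the neuronal and glial lists summed to far more, although the modiolus had been removed. The neuronal list is not exclusive to neurons, since it holds the parvalbumin gene, whose protein the study also stained in inner hair cells. The summed level of 20 neuronal markers was 15830 to 17480 CPM in wild-type, 13970 to 14540 in Clrn1-/-, 13880 to 16070 in Clrn2-/- and 10940 to 11310 in double mutants. In double mutants, 4 of the 20 were called lower and 3 higher (35%, beside 9.9% of all genes). The levels of Ntrk2 and Ntrk3 were below wild-type in double mutants and above it in Clrn1-/- mice, and a link to the neuronal sum was not tested. The 15 supporting cell markers summed to 3406 to 3783 CPM in wild-type, 3807 to 4202 in Clrn1-/-, 3963 to 4726 in Clrn2-/- and 6539 to 7098 in double mutants, with 6 of 15 higher and 1 lower in the latter (46.7%, beside 9.9% of all genes). Much of this sum came from Ceacam16, a gene of the tectorial membrane, at a mean of 1348 CPM in wild-type and 3962 in double mutants. The other 14 markers summed to 2140 to 2308 CPM in wild-type, 2135 to 2270 in Clrn1-/-, 2277 to 2563 in Clrn2-/- and 2821 to 2950 in double mutants. The 15 hair cell markers summed to 464 to 550 CPM in wild-type, 478 to 554 in Clrn1-/-, 526 to 678 in Clrn2-/- and 595 to 632 in double mutants. Of these 15, 1 was called higher and 3 lower in Clrn1-/-, 4 higher in Clrn2-/-, and 5 higher and 1 lower in double mutants. These were 26.7%, 26.7% and 40% of the list, beside 7.22%, 2.66% and 9.9% of all genes.

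The 15 markers of Schwann and satellite glia, cells known to express Ngfr and Gfra1, summed to 22870 to 23790 CPM in wild-type and 22310 to 23070 in Clrn1-/- mice, a range that overlapped while Gfra1 differed 0.54-fold. The 15 macrophage markers summed to 169 to 220.3 CPM in wild-type, 270 to 288 in Clrn1-/-, 198 to 250.4 in Clrn2-/- and 276 to 322 in double mutants, with 4, 1 and 8 of 15 called higher. These were 26.7%, 6.67% and 53.3% of the list, beside 7.22%, 2.66% and 9.9% of all genes called in the 3 mutants. The 15 fibroblast markers summed to 8714 to 10600 CPM in wild-type, 6787 to 7376 in Clrn1-/-, 6561 to 7025 in Clrn2-/- and 9007 to 10360 in double mutants. Most of that sum came from Coch and Otos, and the other 13 summed to 2117 to 2516 CPM in wild-type, 2692 to 2904 in Clrn1-/-, 2362 to 2656 in Clrn2-/- and 3090 to 3260 in double mutants. Of the 15, 3 were called higher and 3 lower in Clrn1-/-, 2 lower in Clrn2-/-, and 4 higher and 2 lower in double mutants. These were 40%, 13.3% and 40% of the list, beside 7.22%, 2.66% and 9.9% of all genes. The 5 red blood cell markers summed to 700.3 to 1139 CPM in wild-type and to 278 to 379 in Clrn1-/-, 426 to 642 in Clrn2-/- and 535 to 714 in double mutants. All 5 were called lower in Clrn1-/- and in Clrn2-/- mice, and 2 of them (40%) in double mutants, beside 7.22%, 2.66% and 9.9% of all genes. The stria vascularis had been dissected away, yet its 14 markers summed to 1231 to 1631 CPM in wild-type and 1341 to 1479 in Clrn1-/- mice. In Clrn2-/- mice and double mutants they summed to 1282 to 1421 and 1491 to 1553 CPM. None of the 14 was called in the single mutants, while 3 were higher and 3 lower in double mutants (42.9%, beside 9.9% of all genes). No marker on these lists was at 0 throughout a genotype, and the part of any of these cell types in the changes of the 8 genes was not tested.

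**Figure D4:**
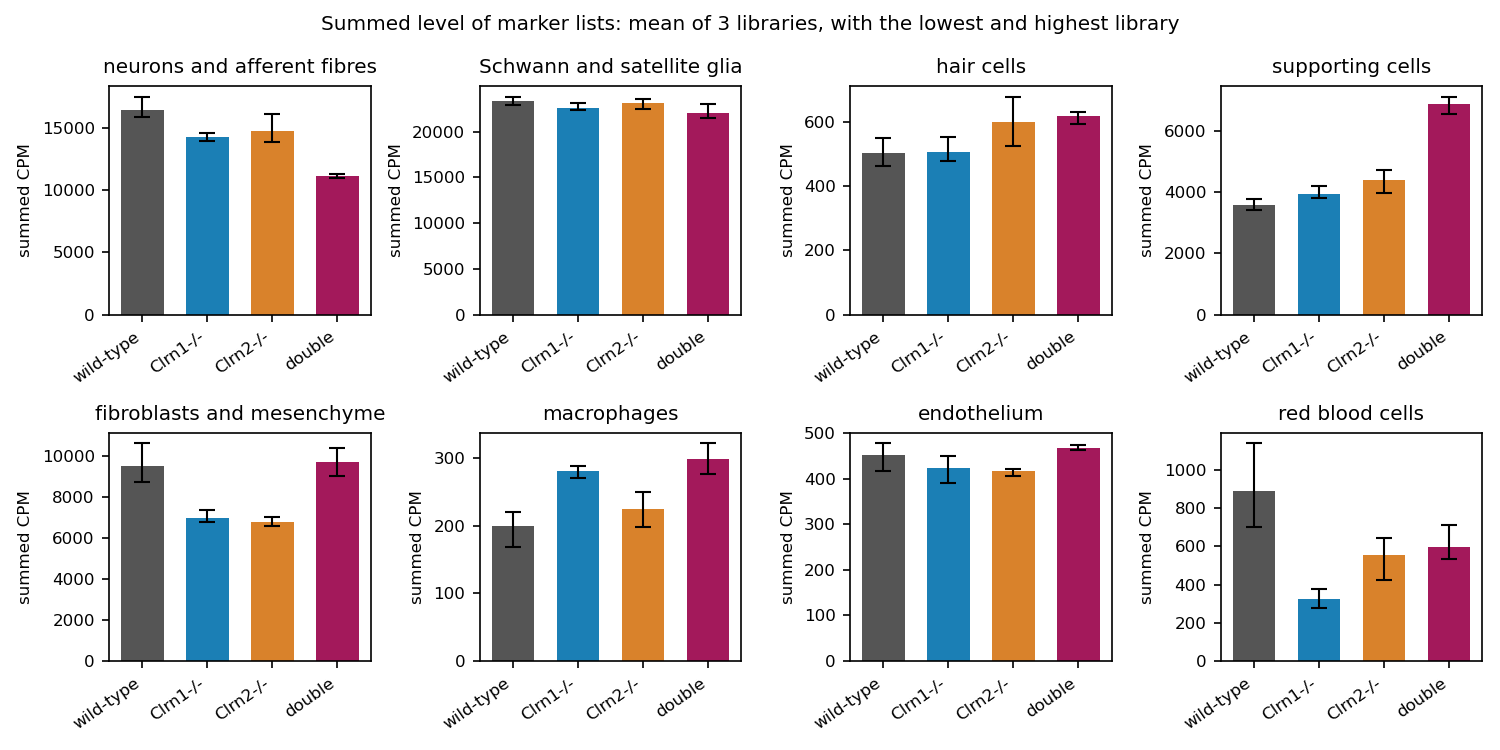
Summed CPM (vertical axes, from 0) of 8 marker lists by genotype; bars are means of 3 libraries and error bars run from the lowest to the highest library. Double mutants have the lowest neuronal sum, 10940 to 11310, and the highest supporting cell sum, 6539 to 7098, while the glial sums of all genotypes lie between 21510 and 23790.

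The genes whose levels followed each of the 8 most closely over the 12 libraries were found by Pearson's r of log2 CPM. These values are descriptive, since the libraries form 4 groups of 3 and share their genotype. Bdnf was followed most closely by Snx1 (r = 0.989), Ppp2cb and Galm, Ntf3 by Fbxl20 (r = 0.909), Ctns and Brf1, and Gdnf by Tmem164 (r = 0.967), Gm9195 and Slc44a5. Ntrk2 was followed by Ctif (r = 0.981), Fam131c and Sh2d5, Ntrk3 by Rasgrf1 (r = 0.976), Camk1d and Aldh5a1, and Ngfr by Clstn1 (r = 0.879), St3gal5 and Xpo5. For Gfra1 they were Rpl35a (r = 0.982), Tdg and Capza1, and for Ret Ccdc190 (r = 0.949), Rtkn2 and Gfap.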

How the data were processed

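The authors sequenced strand-specific, polyadenylated RNA as paired 100-base reads, and deposited unnormalized read counts per gene from STAR (GRCm38.p6, Gencode M24 annotation) in 3 strand columns for each of 12 libraries. The column in the orientation of the kit, 95.2% to 95.5% of the stranded counts, was used, and the 4 totals of unassigned reads, 13.5% to 15.8%, were left out. Genotypes and replicate numbers came from the labels. Depth was 30008679 to 41049302 counts per library.

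In R 4.3.3 with edgeR 4.0.16, filterByExpr (minimum count 10) kept 19052 genes. Libraries were scaled by TMM (factors 0.963 to 1.02), fitted together by genotype and compared with the quasi-likelihood test. Calls needed a p, adjusted by Benjamini-Hochberg, no higher than 0.05 and a fold change of 1.5 or more, the thresholds of the study, whose own test was limma-voom. Standard errors were derived from the test statistic. The interaction is the effect of losing Clrn1 in mice without Clrn2 minus that in mice with it. FPKM used exon lengths of Gencode M21, an earlier release of the same build. The scripts were tested on simulated counts.

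The 8 genes and all lists were chosen with earlier results of these data known. Named are all 8, up to 3 called genes per direction, list and mutant with the largest changes against wild-type, and per gene the 3 with the highest correlation among genes of at least 1 CPM on average. Ceacam16, Coch and Otos were named, and marker sums taken without them, after their values were seen. A gene that the rule names is not reported here. Promoter windows came from RefSeq, which gave entries for 6 of the 8 genes. Alternatives were DESeq2 1.42.0, limma-voom (limma 3.58.1), a block for the replicate number, unstranded counts, scaling by library size alone, an FPKM filter of 0.1 or none, fits of 2 genotypes only, calls by adjusted p only, and omission of each library.

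Replicate numbers have no stated meaning. Over 12453 genes, deviations of same-numbered libraries from their group means correlated above 0.1 between wild-type and Clrn1-/- in all 3 pairs (0.269, 0.126 and 0.105). Between wild-type and double mutants the values were 0.255, -0.277 and 0.301, and no other comparison was above 0.1 in all 3 pairs. Differently numbered libraries were not compared, so these values do not settle whether libraries were paired.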

Additional observations from a re-analysis of the deposited data

Results flagged for a closer look

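In 3 of the 8 genes, the difference that loss of Clrn1 made was not the same with and without Clrn2, by edgeR's test of the interaction at an adjusted p of at most 0.05, which 17.4% of all genes passed as well. For Gfra1 the interaction was 0.76 on the log2 scale (adjusted p = 1.81e-04), with differences of -0.88 in mice with Clrn2 and -0.13 in mice without it. For Bdnf it was 0.51 (adjusted p = 0.0168), below the 1.5-fold minimum, with differences of 0.11 and 0.62, and did not pass without Clrn1-/- replicate 2 (0.46, adjusted p = 0.0512) or without double-mutant replicate 2 (0.45, adjusted p = 0.0571). For Ntrk3 it was -0.26 (adjusted p = 0.0177), also below that minimum, with differences of 0.19 and -0.08. Groups of 3 libraries are too small for a test of outlying libraries.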

How the results depend on the processing

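Of 1168 values of the 8 genes recomputed under 21 alternatives, 1130 kept their direction and stayed called or not called, 2 were no longer called, 18 became called and 18 changed sign, none of the latter called. Values below the 1.5-fold minimum could still cross an adjusted p of 0.05 without a change of call, as for the interaction of Bdnf above. Without a fold minimum, the called genes of the 8 numbered 3 in Clrn1-/- (26.9% of all genes called), 3 in Clrn2-/- (14.2%) and 4 in double mutants (37%) against wild-type, 3 between single mutants (18.5%), 5 between double mutants and Clrn1-/- (30.4%), 1 between double mutants and Clrn2-/- (27.6%) and 3 for the interaction (17.4%). The interaction had 2 with library size alone and 2 without a filter, Gdnf being added at -0.70 and -0.67. In double mutants against wild-type, Ntf3 was added under these 2 settings, at 0.73 and 0.68, and without double-mutant replicate 1, at 0.89. With a library left out, calls ranged from 0 to 1 between double mutants and Clrn2-/-, and from 1 to 2 for the interaction. The replicate number as a block changed no call, with 2 genes called in Clrn1-/- against wild-type and Gfra1 at -0.88 (edgeR adjusted p = 5.96e-07). In the other comparisons the block left 1, 2, 1, 2, 1 and 1 called. It moved the calls among all genes between double mutants and Clrn2-/- from 972 to 937. The sign of Ngfr changed in Clrn2-/- against wild-type with limma-voom (-0.001) and in the interaction with library size alone (-0.002). With each library left out, log2 fold changes that lay on both sides of 0 ranged from -0.088 to 0.057 for Ngfr and from -0.193 to 0.005 for Ret in Clrn2-/- against wild-type. In double mutants they ranged from -0.256 to 0.348 for Ntf3 and from -0.001 to 0.064 for Ngfr against Clrn1-/-, and from -0.055 to 0.549 for Ntf3 and from -0.162 to 0.056 for Ret against Clrn2-/-. In the interaction the ranges were -0.591 to 0.013 for Ntf3 and -0.029 to 0.131 for Ngfr. The causes were not tested. Depth limits Ntf3 and Gdnf most, with counts from 23 and 65 upward per library.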
